A study of Homo sapiens with 5 samples.

Results

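SLIT1, SLIT2, SLIT3, ROBO1, ROBO2, ROBO3, NTN1, NTN4, DCC and UNC5B were chosen by name as the SLIT ligands, ROBO receptors, netrins and netrin receptors of the axon guidance system, with their expression in these cells already known. Of these 10 genes, 6 had an entry of their own among 20220 RefSeq entries: SLIT2, NTN1, ROBO2, ROBO3, DCC and UNC5B. RNA was sequenced from HEK 293T, a line of human embryonic kidney origin with the large T antigen of SV40. The control group had 2 libraries from cells grown with no drug, and the treated group had 2 libraries from cells given 1 µM 5-aza-CdR (5-aza-2'-deoxycytidine, which traps DNA methyltransferases on DNA) for 3 days. The recovery group had 1 library from cells that had the same 3 days of drug and then 30 days in culture without it. All groups are the same line in the same medium, and nothing in the labels says which cultures gave the libraries. Values are FPKM (fragments scaled to transcript length and to sequencing depth), of which the authors deposited 1 per group, so no spread between libraries can be given for any value. The tests are the authors' own q-values (p-values adjusted for multiple testing) against control, with a call at q under 0.05.

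SLIT proteins are large secreted ligands that bind ROBO receptors on the cell surface, and in the developing nervous system they repel axons from the midline. Netrins are secreted proteins related to laminin that attract axons through DCC and repel them through UNC5 receptors. In the embryonic kidney, SLIT2 acting through ROBO2 limits where the ureteric bud forms, and ROBO3 is known from commissural axons, where it changes their response to the midline. SLIT2 is also known from cancers in which its promoter is methylated and the gene silent.

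SLIT2 was the most abundant of the measured members in control cells and the only member of the 6 called by the authors. It was lower in recovery, which is 1 library, than in control. NTN1 and UNC5B stood near the middle of the expressed genes in control and treated cells, ROBO2 and ROBO3 were low, and DCC was listed at 0. No member was called in treated cells. The order of the members in control was SLIT2 at 34.9 FPKM, UNC5B at 10.3, NTN1 at 9.88, ROBO2 at 2.18, ROBO3 at 1.45 and DCC at 0. With 1 value per group, it cannot be said which neighbours in that order differ beyond their spread. These are bulk values, in which fewer cells with a transcript and less transcript per cell cannot be told apart.

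**Figure D1:**
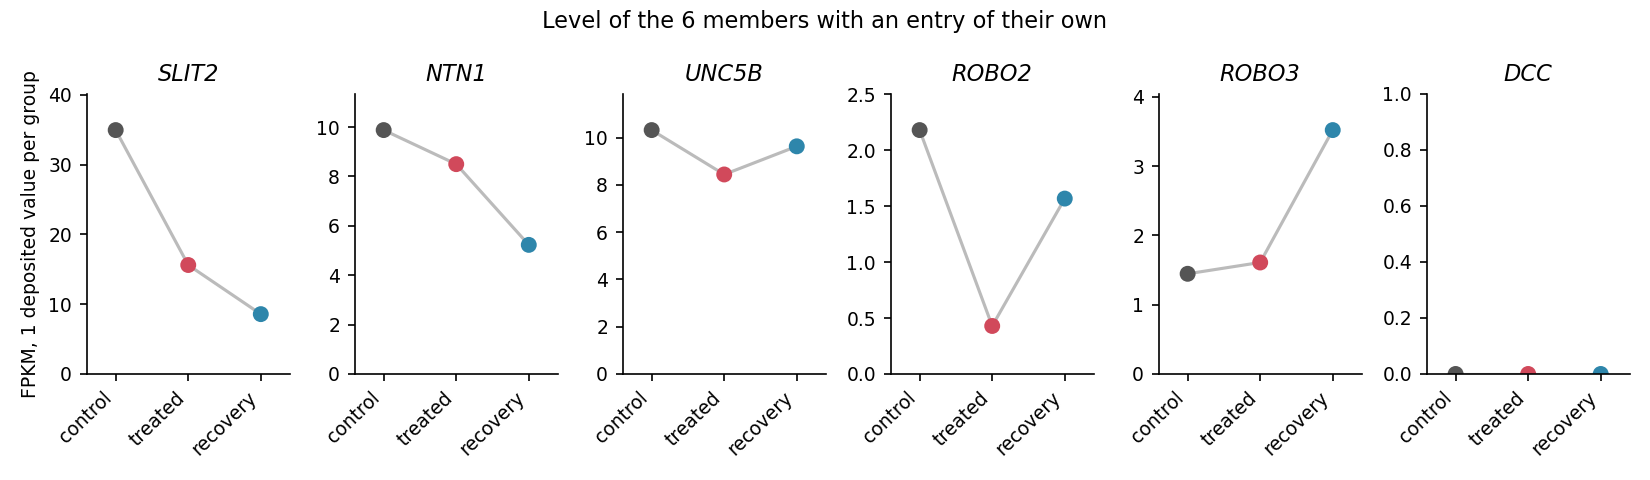
Deposited FPKM (vertical axis, linear, from 0 and scaled for each gene) in control, treated and recovery cells for the 6 members with an entry. Each point is 1 group value, and the lines only join the points of a gene. Error bars are absent because the authors deposited 1 value per group, and the recovery group is 1 library. SLIT2 goes from 34.9 to 15.6 to 8.57 FPKM, and DCC is at 0 in each group.

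Because the drug acts on the enzymes that methylate CpG sites, the CpG content of the member promoters is shown first. The 250 bases before the start site were taken from RefSeq (GRCh38.p14), which gave 13 promoters for 8 of the 10 genes, and for none of NTN1 and UNC5B. CpG was counted as the letters CG, which read the same on both strands and occur at least once in 93.9% of the 35116 promoters in the table. Printed below are, for 4 measured members, the promoter whose start gives a gene length nearest to the span of the entry, 5′ to 3′ on the strand of the gene, with each CG in capitals. SLIT2 lies on chr4:20251655-20251904, ROBO2 on chr3:77039849-77040098, ROBO3 on chr11:124865182-124865431 and DCC on chr18:52339947-52340196, all on the plus strand of GRCh38.p14. The lengths differed by 45 bases for ROBO2, 26 for ROBO3 and 29 for DCC. For SLIT2, with 1 promoter in the table, they differed by 1659 bases, more than the window, so these bases need not lie directly before the start of the measured entry.
SLIT2: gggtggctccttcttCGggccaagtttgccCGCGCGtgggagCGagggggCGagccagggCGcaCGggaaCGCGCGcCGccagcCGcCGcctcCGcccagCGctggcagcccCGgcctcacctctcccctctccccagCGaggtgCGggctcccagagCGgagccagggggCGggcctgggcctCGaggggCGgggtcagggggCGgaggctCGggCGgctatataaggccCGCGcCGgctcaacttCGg
ROBO2: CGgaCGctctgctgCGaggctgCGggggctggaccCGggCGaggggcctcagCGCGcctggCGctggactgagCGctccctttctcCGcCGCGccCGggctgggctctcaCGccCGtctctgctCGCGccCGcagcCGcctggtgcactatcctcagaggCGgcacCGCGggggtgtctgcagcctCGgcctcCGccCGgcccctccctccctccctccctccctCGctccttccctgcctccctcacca
ROBO3: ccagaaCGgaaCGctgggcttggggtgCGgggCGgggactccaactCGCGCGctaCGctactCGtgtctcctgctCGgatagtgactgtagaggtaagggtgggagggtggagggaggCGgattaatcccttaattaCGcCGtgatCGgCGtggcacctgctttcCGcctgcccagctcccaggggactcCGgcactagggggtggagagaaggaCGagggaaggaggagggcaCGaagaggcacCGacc
DCC: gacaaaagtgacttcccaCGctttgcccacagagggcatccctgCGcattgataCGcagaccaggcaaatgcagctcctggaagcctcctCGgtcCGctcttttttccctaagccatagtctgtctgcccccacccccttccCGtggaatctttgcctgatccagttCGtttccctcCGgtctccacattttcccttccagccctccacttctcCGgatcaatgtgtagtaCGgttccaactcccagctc

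The SLIT2 promoter in the RefSeq table held 30 CpG in 250 bases, more than 87.6% of all promoters, against a median of 11. The ROBO2 promoter shown held 27 CpG, whereas the other RefSeq start of ROBO2, which gives a longer gene, had 7 in its 250 bases. ROBO3 held 20 CpG at the start shown, and DCC, the member listed at 0, held 10, close to the median. A GC share of 50% or more with an observed to expected CpG ratio of 0.6 or more was met by 10 of the 13 member promoters and by 45.0% of all promoters. The exceptions were DCC, with a ratio of 0.578, the upstream start of ROBO2 and 1 of the starts of ROBO1. These letters describe the sequence and say nothing of how much of it was methylated in these cells. The authors' table carries a mark headed SOM DNA methylation, which the file does not explain, on 14.1% of its entries and on 0 of the 6 members with an entry. This mark was counted where its text holds the word Affected.

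**Figure D2:**
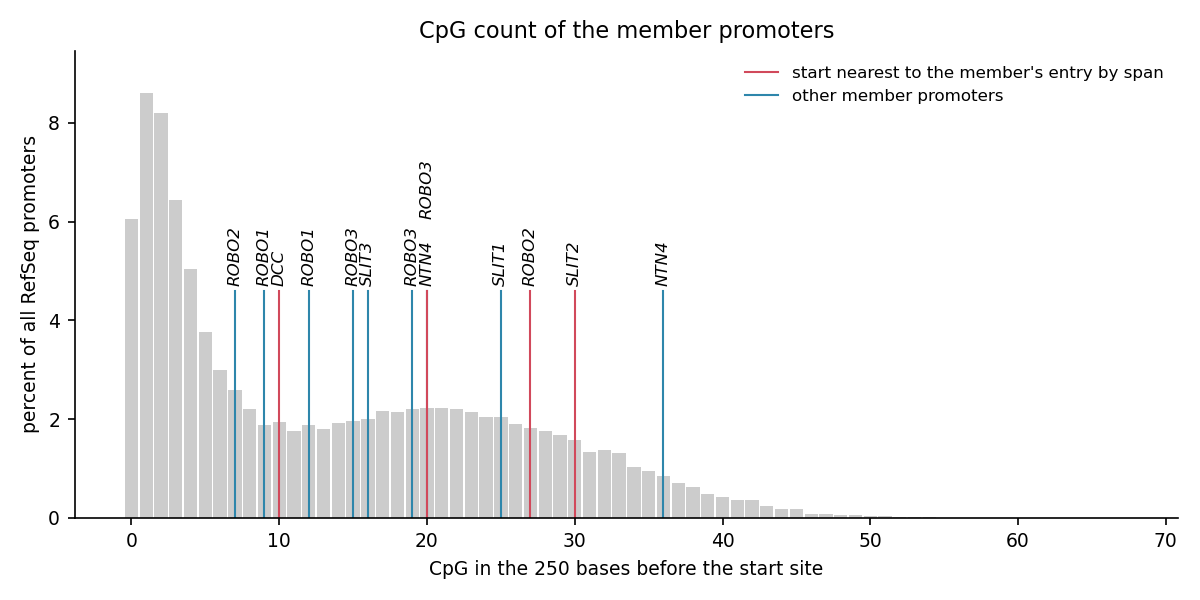
Number of CpG in the 250 bases before the start (horizontal axis) for all RefSeq promoters (grey bars, percent of promoters on the vertical axis) and for the 13 member promoters (vertical lines with gene names). Red lines mark the start nearest to a measured entry by span, among them DCC at 10 and SLIT2 at 30 (whose length differs from its entry by 1659 bases), and blue lines mark the other member promoters. The red line at 20 is ROBO3, where a NTN4 promoter has the same count.

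The first comparison asked which members differed while the drug was present. Of the 4 members with q under 1, 0 were called higher and 0 lower in treated cells, where 1.08% of all entries with q under 1 were called higher and 0.275% lower. The secreted ligand SLIT2 (NM_001289135, chr4:20255187-20622184, hg19) had 34.9 FPKM in control against 15.6 FPKM under the drug, 2.24-fold lower, with q = 0.278 in the authors' deposited table. In control SLIT2 stood above 82.8% of the 12658 entries over 0, and in treated cells above 68.8% of 14844. NTN1, the classical secreted netrin (NM_004822, chr17:8924859-9147317), was at 9.88 and 8.50 FPKM. That is 1.16-fold lower, with q = 0.994 in the authors' deposited table. The treated values of both ligands were thus below control, by unequal amounts and without a call.

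Among the receptors, ROBO2 (NM_001128929, chr3:77089294-77699114) had the lowest treated value of those above 0. It had 2.18 FPKM in control against 0.429 FPKM under the drug, 5.08-fold lower, with q = 0.803 in the authors' deposited table. On the log2(FPKM + 1) scale, which damps changes at such low levels, the ROBO2 difference was -1.15 and that of SLIT2 -1.11. UNC5B, a repulsive netrin receptor (NM_001244889, chr10:72972292-73062635), was at 10.3 and 8.44 FPKM, with q = 0.986 in the authors' deposited table. ROBO3 (NM_022370, chr11:124735305-124751370) was at 1.45 and 1.61 FPKM and was given a q of 1. Of the 5 members above 0, SLIT2 and ROBO2 were 2-fold or more lower in treated cells and 0 were 2-fold or more higher. Over all entries above 0 in both groups with a mean of 0.5 FPKM or more, 11.1% were 2-fold or more lower and 13.3% as much higher. ROBO3 was the 1 member of 5 with any higher value, as 48.7% of those entries were.

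The second comparison asked what differed a month after the drug was withdrawn. SLIT2 was at 8.57 FPKM in recovery against 34.9 FPKM in control, 4.08-fold lower, with q = 0.0147 and a call in the authors' deposited table. It was 1 call among the 5 members with q under 1, lower, where 0.447% of all such entries were called lower and 0.895% higher. Of the 50 lower calls in recovery, 3 were of entries above 0 FPKM there, SLIT2 among them. The members were chosen with their values known, so this count is a description. The q of SLIT2 is the lowest value that the table holds, which 103 entries share in recovery, so it does not rank SLIT2 among them. The recovery group is 1 library, so the SLIT2 call has no replicate on the recovery side. In recovery SLIT2 ranked 6836 of the 13673 entries over 0. NTN1 was at 5.23 FPKM in recovery, 1.89-fold below control, with q = 0.883 in the authors' deposited table. The summed level of SLIT2 and NTN1, the ligands measured, was 44.8 FPKM in control, 24.1 under the drug and 13.8 after withdrawal, most of that range coming from SLIT2.

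The receptors did not share one direction in recovery. UNC5B was at 9.63 FPKM, 1.07-fold below control (q = 0.998 in the authors' deposited table). ROBO2 was at 1.57 FPKM, 1.39-fold below control (q = 0.983 in that table). ROBO3 was at 3.52 FPKM, 2.43-fold above control, with q = 0.934 in the authors' deposited table. Of the 5 members above 0, ROBO3 was the 1 with a 2-fold or larger higher value and SLIT2 the 1 with a 2-fold or larger lower value, where 12.6% and 8.84% of all such entries were. It was also the 1 of 5 with any higher value, against 48.4% of entries. The 4 measured receptors together summed to 13.9 FPKM in control, 10.5 under the drug and 14.7 after withdrawal.

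The depth behind ROBO3 could be read from its values. Low FPKM can be multiples of the value of 1 fragment, a step that differs between genes. The ratio of this step between groups was taken as the same for all genes and read from the commonest FPKM ratio. That ratio was held by 103 of 12366 entries for treated to control and by 107 of 12095 for recovery to control. By these ratios 1 fragment was worth 0.757 times as much FPKM in treated as in control cells, and 1.53 times as much in recovery. With these units the 3 values of ROBO3 are those of 17 fragments in control, 25 in treated cells and 27 in recovery, as smallest whole numbers, with the largest departure from a whole number at 7.33e-05 fragments. Counting error alone then gives the recovery to control ratio of ROBO3 a 95% interval of 1.28 to 4.76 (exact Clopper-Pearson), and the treated to control ratio one of 0.578 to 2.20. These intervals leave out the spread between cultures and libraries and treat PCR copies as separate molecules, and a multiple of these numbers would narrow them. For SLIT2, NTN1, ROBO2 and UNC5B no whole numbers with up to 20 control fragments gave the 3 values, so the fragments behind them are unknown. Such numbers were found for 1632 of the 11983 entries above 0 in all groups.

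The third comparison was recovery against treated cells, for which the table gives no test. SLIT2 was 1.82-fold lower in recovery than in treated cells and NTN1 1.63-fold lower. ROBO2 was 3.65-fold higher, ROBO3 2.19-fold higher and UNC5B 1.14-fold higher. Of these 5, 2 were 2-fold or more higher and 0 as much lower, against 8.77% and 8.5% of all entries. Any higher value in recovery was seen for 3 of 5 members, near the 50.2% of all entries. The treated and the recovery comparison share the control values, so these differences are given side by side and no relation between them is drawn. SLIT2 and NTN1 also carry the authors' mark headed SOM expression, which the file does not explain and which is on 12.8% of all entries. It was counted where its text holds the word High.

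DCC, the attractive netrin receptor, was listed at 0 in each group (NM_005215, chr18:49866542-51062273). Its entry spans 1195732 bases. Among the 48 protein-coding entries over 1000000 bases long, 11 were at 0 in all groups (22.9%), and among all 16862 protein-coding entries 16.8% were. An FPKM of 0 in this kind of table can also be a failed estimate, which was not tested for DCC.

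SLIT1, SLIT3, ROBO1 and NTN4 had no entry under their own accessions. The loci of all of them were covered by entries named for a noncoding transcript. These were SLIT1-AS1 for SLIT1 (chr10:98757795-99052430, hg19), SLIT3-AS1 for SLIT3 (chr5:168088738-168728133), LOC101927374 for ROBO1 (chr3:78646388-79817059) and the pseudogene PGAM1P5 for NTN4 (chr12:96043031-96184536). All were listed at 0 in the 3 groups, except PGAM1P5 at 0.146 FPKM in recovery. Which transcripts such a value sums is not given in the sources used here, so no level is stated for SLIT1, SLIT3, ROBO1 or NTN4. Of 357 noncoding entries whose span is over 3 times their own gene, 47.6% were at 0 in all groups, and of all 3358 noncoding entries 55.6% were. Of the 9 noncoding entries over 1000000 bases long, the entry over ROBO1 among them, 8 were at 0 in all groups (88.9%). The entries over SLIT3 and ROBO1 carry the mark headed SOM DNA methylation, 2 of these 4 entries, against 14.1% of the table.

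No noncoding RNA locus in the authors' lncRNA table overlapped any of the 10 member loci or lay within 10 kb, where the table has 10010 loci. The share of all RefSeq entries with a noncoding RNA locus that near was not counted, so this count has no share beside it. Within 100 kb of the members there were 8 such loci. The nearest above 0 was TCONS_l2_00003732, 16.9 kb from the SLIT1 locus, with 142 FPKM in control, 0 under the drug and 59.4 FPKM after withdrawal (q = 0.126 and 0.762 in the authors' deposited table). TCONS_l2_00022611, 44.7 kb from the SLIT3 locus, was at 103, 84.4 and 785 FPKM, with q = 0.932 and 0.216 in the same table. Both were picked out with their values in view. Of the RefSeq entries within 10 kb, STX8 beside NTN1 was at 22.1, 20.1 and 22.2 FPKM, and ROBO4, a receptor known from blood vessels that lies 2.74 kb from ROBO3, was at 0.102, 0 and 0.0781 FPKM. The ROBO4 values are those of 2, 0 and 1 fragments, so a difference between groups was not detectable at this depth.

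The other ligands and receptors of the system showed 0 calls in both comparisons. With q under 1 were 4 of these ligands and 3 of these receptors in treated cells, and 5 and 3 in recovery. Of all entries with q under 1, 1.08% were called higher and 0.275% lower in treated cells, and 0.895% and 0.447% in recovery. At those shares, 0 calls among so few genes is not a result about them. Of 11 further ligands 9 had an entry, and NELL2, a secreted ligand of ROBO3, was the most abundant, with 11.6 FPKM before the drug, 13.4 during it and 16.0 after it. FLRT2, a ligand of UNC5 receptors, was at 5.97, 4.80 and 8.46 FPKM. RGMA, which binds neogenin, was at 4.21, 2.70 and 1.13 FPKM, with q = 0.976 and 0.893 in the authors' deposited table. NTN3, a further netrin, had the widest range, at 0.104, 0.628 and 4.93 FPKM. These NTN3 values are those of 1, 8 and 31 fragments, so its recovery to control ratio of 47.5 has a 95% counting interval of 7.92 to 1937 (exact Clopper-Pearson), and the authors' deposited table gave q = 0.939. NTN3 was named after its values were seen.

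Of 8 further receptors 7 had an entry. The cell adhesion receptor MCAM was at 16.3, 25.6 and 22.5 FPKM, and NEO1, the receptor most like DCC, at 14.3, 17.4 and 15.0 FPKM. UNC5C was at 6.31, 2.16 and 2.55 FPKM, with q = 0.406 and 0.591 in the authors' deposited table. UNC5B and UNC5C were the family members above 1 FPKM in every group. UNC5A was at 0, 0.198 and 0.0803 FPKM and UNC5D at 0.0261, 0.0395 and 0.

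**Figure D3:**
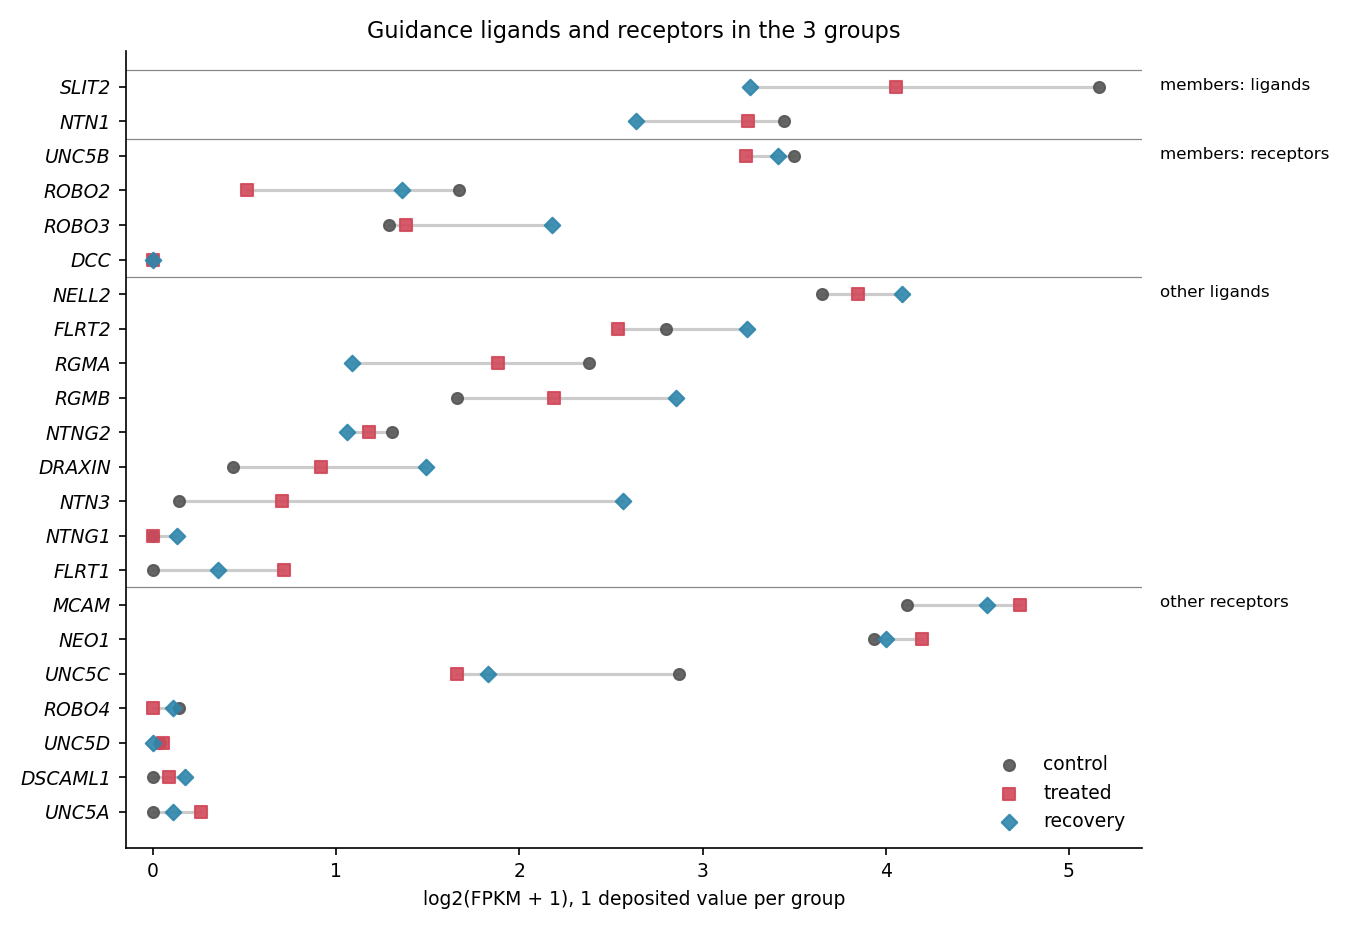
Level of each measured ligand and receptor on a log2(FPKM + 1) axis, with 1 circle (control), 1 square (treated) and 1 diamond (recovery) per gene and a grey line over their range. Genes are ordered by control level within each role. SLIT2, MCAM and NEO1 lie at the right, and NTN3 and SLIT2 have the longest lines.

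Heparan sulfate proteoglycans hold SLIT at the cell surface. A list of 10 heparan sulfate and matrix partners held such proteoglycans, enzymes that build heparan sulfate, and dystroglycan (DAG1), which binds SLIT in the matrix. All 10 had an entry with q under 1 in both comparisons, 1 was called higher in treated cells and 0 in recovery. Of all entries with q under 1, 1.08% were called higher in treated cells. The call was SDC4, a transmembrane heparan sulfate proteoglycan, at 24.6, 94.2 and 36.3 FPKM. Its treated value was 3.83-fold above control, a call in the authors' deposited table (q = 0.0147). In recovery the same table gave q = 0.939. EXT2, an enzyme that builds heparan sulfate chains, was at 66.0, 75.7 and 66.1 FPKM and the syndecan gene SDC2 at 36.1, 37.2 and 34.5 FPKM. Among 29 of 32 intracellular effectors with an entry, 0 were called in either comparison. Of these 29, 28 had q under 1 in each comparison. Over all entries with q under 1, 0.275% were called lower in treated cells, and in recovery 0.895% higher and 0.447% lower. At those shares, 0 calls among 28 genes is not a result about them. The most abundant were the small GTPases RHOA at 143, 136 and 129 FPKM and CDC42 at 125, 182 and 117 FPKM, and MAGED1, which binds UNC5 receptors, at 95.0, 112 and 107 FPKM. Over the 48 ligands, receptors, partners and effectors whose mean reached 0.5 FPKM, the median difference of log2(FPKM + 1) was 0.16 in treated cells and -0.08 in recovery. Over all 12712 such entries it was 0.01 and 0.

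The members were set beside the other axon guidance families. Semaphorins, plexins and neuropilins had 28 of 31 genes with an entry, and ephrins with their Eph receptors 19 of 22. In both lists 0 genes were called in treated cells and 0 in recovery. Those with q under 1 numbered 19 (semaphorin list) and 14 (ephrin list) in treated cells, and 19 and 13 in recovery. Of all entries with q under 1, 1.08% were called higher and 0.275% lower in treated cells, and 0.895% and 0.447% in recovery. NRP1, a co-receptor for secreted semaphorins, was at 24.7, 9.47 and 23.7 FPKM (q = 0.283 and 0.998 in the authors' deposited table), SEMA3C, a secreted semaphorin, at 19.9, 5.27 and 9.70 FPKM (q = 0.106 and 0.656) and the plexin receptor gene PLXNA1 at 11.4, 22.1 and 14.2 FPKM. In the ephrin list the receptors EPHB4 and EPHA2 were at 16.6, 13.9 and 15.2 FPKM and at 15.4, 15.8 and 9.80 FPKM. The receptor EPHA3 was at 13.0, 3.05 and 7.09 FPKM, with q = 0.0953 for treated cells in the authors' deposited table. Median differences in treated cells were 0.06 for the semaphorin list and 0.54 for the ephrin list, and in recovery 0.07 and 0.45. They moved with the minimum level: over genes averaging at least 5 FPKM the treated medians were -0.26 (semaphorin) and 0.29 (ephrin), and with no minimum the semaphorin median in recovery was 0.19. The 5 members above 0 had medians of -0.26 and -0.31. None of these medians has a test, and the members were chosen with their values known.

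**Figure D4:**
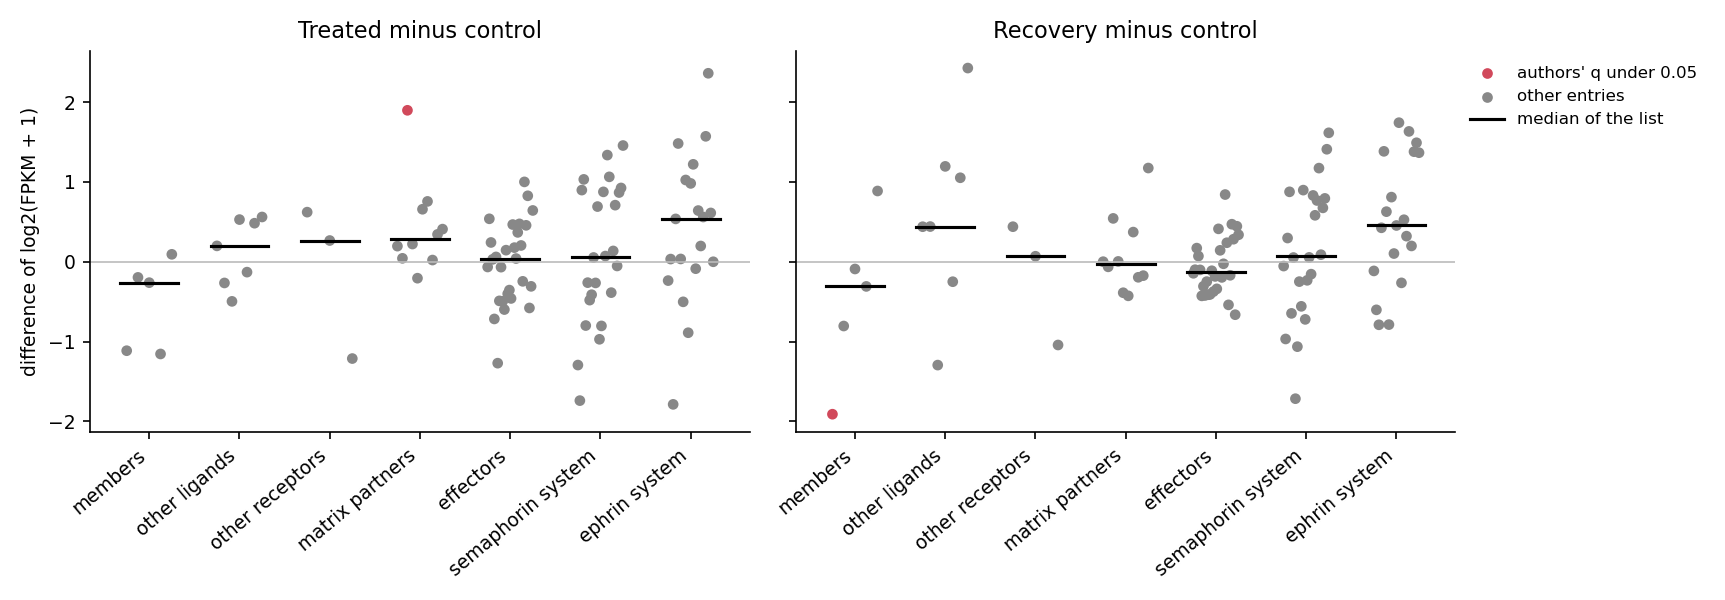
Difference of log2(FPKM + 1) from control (vertical axis) for treated cells (left) and recovery (right), with 1 point per gene that has a mean of 0.5 FPKM or more, by list. Black bars are medians, and red points are genes with the authors' q under 0.05, which are SDC4 in treated cells and SLIT2 in recovery.

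Entries with the most similar pattern were sought over the 8568 entries with a mean of 5 FPKM or more, by distance in the treated and recovery differences of log2(FPKM + 1), which are 2 values from 3 groups. Nearest to SLIT2 were RWDD4 (14.9, 6.56 and 3.68 FPKM), LINC01023 (22.7, 10.7 and 4.81), KLK8, ABHD18 (16.8, 6.70 and 4.29) and ARHGEF25 (31.0, 13.4 and 8.68). None of these 5 was called in either comparison, the lowest recovery q among them being 0.154 for ARHGEF25 in the authors' deposited table. For ROBO2, the member with the largest difference in treated cells on this scale, the nearest were EXOSC7, ATF4, ZC3H10, CDKN1B and RIPK2. All are more abundant than ROBO2 by the minimum of 5 FPKM, which ROBO2 itself, with a mean of 1.39 FPKM, does not reach. ATF4 was at 492, 217 and 401 FPKM and RIPK2 at 11.2, 4.35 and 8.81 FPKM. As plain ratios the treated values of ATF4 and RIPK2 were 2.27- and 2.57-fold lower against 5.08-fold for ROBO2, whose difference is damped by the pseudocount of 1 and was -2.11 with 0.1, so the likeness is one on this scale.

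Marker genes were checked against the label of the cells. Of 10 genes known from HEK 293T 9 had an entry, with VIM at 316 FPKM, the entry of KRT18 (which also spans KRT8) at 231 FPKM and NEFL at 28.9 FPKM in control, while PAX2, CHGA, IRS4, NEFM and NEFH were listed at 0 there. The summed level of this list was 576 FPKM in control, 633 under the drug and 521 after withdrawal. NEFM, NEFH and IRS4 were called higher in treated cells in the authors' deposited table, 3 of the 6 with q under 1. IRS4 was also called higher in recovery, 1 of 4 with q under 1. Among all entries with q under 1, 1.08% were called higher in treated cells and 0.895% in recovery. These calls rest on control values of 0, which can also be failed estimates, and that was not tested. Of 6 neuronal markers with an entry, TUBB3 and MAP2 were above 1 FPKM in control, RBFOX3 and STMN2 were at 0 there, and the list summed to 20.2, 29.1 and 16.4 FPKM. TUBB3 was at 16.0, 27.7 and 14.9 FPKM and MAP2 at 4.01, 1.05 and 1.24 FPKM, both without a call. Endothelial markers (6 of 6 with an entry) summed to 0.0621, 2.24 and 0.758 FPKM with CDH5 and TIE1 at 0 in each group, and blood markers (6 of 6) to 0.317, 6.72 and 0.970 FPKM with CD3E and HBB at 0 in each group. Fibroblast markers (6 of 6) summed to 8.54, 5.78 and 12.3 FPKM, with DCN at 0 in each group. The part of these differences in the SLIT2 values was not tested.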

How the data were processed

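Total RNA was depleted of ribosomal RNA and made into directional libraries, per the labels. The authors deposited FPKM from Cufflinks and Cuffdiff, 1 value per group with libraries combined, and q-values (adjusted p-values) for treated and recovery against control, per the file headers and the submitters' processing notes. These notes list the builds hg19 and mm9, and the coordinates of the human tables are taken as hg19, printed 1-based. The tables give no library totals and no value per library, so no test over libraries could be run and the authors' q-values are the only tests. Aligner, annotation release and settings: not given in the sources used here.

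Accessions were matched to symbols through RefSeq (GRCh38.p14, names and neighbours only), and 19665 of 20220 entries matched. The number of value columns without a group was 0. Shifted cells removed 1 RefSeq entry and 2 lncRNA transcripts. Log2 differences use a pseudocount of 1 and understate changes of low genes. Members at q = 1 may not have been tested. Fragment numbers were searched up to 20 in control with a tolerance of 0.02 fragments, a step tested on simulated data. Python 3.11.15, pandas 2.3.3 and scipy 1.17.1 were used.

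The members and gene lists were chosen with earlier results of these data known. Named are all members, and in every other list the genes called and the 3 most abundant in control per role, the 5 nearest patterns, and others where said. Alternatives were 2 other scalings, a pseudocount of 0.1, other q thresholds, minimums and windows.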

Additional observations from a re-analysis of the deposited data

How the results depend on the processing

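Scaling each group by its upper quartile or by its median ratio changed no direction of the 5 members above 0. With a pseudocount of 0.1 the ROBO2 difference was -2.11 in treated cells (-1.15 with 1) and 1.66 between recovery and treated (0.85 with 1). At q under 0.01 no call is possible, since the lowest q is 0.0147: the members called in recovery go from 1 to 0, and the treated calls of the ligand, receptor, partner and effector list from 1 to 0. At q under 0.10 the ephrin list has 1 lower call in treated cells, EPHA3. The semaphorin median in treated cells, 0.06, was -0.26 over genes averaging at least 5 FPKM; the cause was not tested. A window of 100 kb held 8 lncRNA loci, against 0 within 10 kb. With 300 bases, 11 member promoters in place of 10 were CpG-rich. No paired analysis was possible because the table gives 1 value per group and none per library, so no replicate could be left out either. Depth limits ROBO3, NTN3 and ROBO4.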
